A study of Mus musculus with 9 samples.

Results

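The genes described here encode the protein subunits of the cytosolic ribosome in embryonic mouse lenses deficient for Mafg and Mafk, a pair of small Maf transcription factors. Members were taken by symbol: Rpl or Rps followed by a number, with an optional a, x, l or y, together with Rplp0, Rplp1, Rplp2 and Rpsa, and without -ps entries. Of 22013 entries in the table, 78 were members, 46 of the large (60S) subunit and 32 of the small (40S) subunit, and none fell below 1 in any of the 9 libraries. The GENCODE annotation holds 81 protein-coding genes with such symbols, and the other 3, the paralogs Rpl3l, Rpl10l and Rpl39l, were not analysed here. The RNA came from whole lenses at E16.5, the embryonic stage at which all libraries were made, with 8 lenses in each library and 3 libraries per genotype. Control lenses were *Mafg*+/-:*Mafk*+/-, so that the controls also carried a knockout allele of each gene. Compound KO lenses were *Mafg*-/-:*Mafk*+/- and double KO lenses were *Mafg*-/-:*Mafk*-/-. The alleles were germline knockouts on an ICR background, so the genes were lost in every tissue of the embryo.

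Each ribosome pairs a small subunit, which reads the mRNA, with a large subunit, which forms the peptide bond. Their proteins are made in matched amounts from genes scattered over the genome, and proteins left unassembled are degraded. Many of their mRNAs begin with a C followed by a run of pyrimidines, the terminal oligopyrimidine (TOP) tract, through which mTOR signaling controls their translation. In the lens, fiber cells make very large amounts of crystallin before they lose their organelles, ribosomes among them. Small Maf proteins have no activation domain of their own and act at Maf recognition and antioxidant response elements as partners of CNC and Bach proteins.

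Many ribosomal protein promoters share sequence features at and before the start of transcription. RefSeq promoters on GRCm38.p6, which run from 250 bases before to 50 bases after the annotated start, were found for 57 of the 78 genes. A C followed by at least 4 pyrimidines at an annotated start itself was present in 13 of the 57 (22.8%). It was present in 3.01% of all 27025 genes with a promoter and in 3.10% of the 9898 of them tested in these libraries. The 57 members had 68 annotated starts, and a gene was counted if any of its starts had the tract. Of the starts of Rpl35a, only that with the longest tract is printed below. A wider window, from 10 bases before to 15 bases after a start, held a C followed by at least 4 pyrimidines in 61.4% of the 57 members. The share was 34.4% of all genes and 37.0% of the tested genes. These shares include genes with a tract at the start itself. The windows below give 30 bases before and 15 from the start, 5′ to 3′, with the pyrimidine run that opens at the start in capitals; they show the 9 longest tracts, and the last 3 windows, of Rplp0, Rps3 and Rps4x, show annotated starts without one.
Rpl15: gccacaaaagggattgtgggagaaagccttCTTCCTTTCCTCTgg
Rpl35: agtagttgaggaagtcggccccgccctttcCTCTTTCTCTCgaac
Rps10: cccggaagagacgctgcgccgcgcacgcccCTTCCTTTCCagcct
Rps6: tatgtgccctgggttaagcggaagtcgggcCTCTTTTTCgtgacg
Rps18: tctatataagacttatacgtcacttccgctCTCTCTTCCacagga
Rpl28: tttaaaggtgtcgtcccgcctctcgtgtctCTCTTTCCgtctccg
Rpl38: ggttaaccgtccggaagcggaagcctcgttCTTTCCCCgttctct
Rps15a: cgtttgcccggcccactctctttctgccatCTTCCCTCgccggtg
Rpl35a: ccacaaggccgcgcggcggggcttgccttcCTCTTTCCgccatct
Rplp0: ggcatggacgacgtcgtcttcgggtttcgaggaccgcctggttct
Rps3: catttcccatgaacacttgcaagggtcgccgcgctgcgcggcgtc
Rps4x: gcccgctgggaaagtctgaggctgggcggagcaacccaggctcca

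The Rpl15 window lies at chr14:18270972-18271016 on the minus strand, and its tract of 13 pyrimidines was the longest among the members. The Rps6 window lies at chr4:86857353-86857397 on the minus strand. The Rps3 window, with no tract, lies at chr7:99483695-99483739 on the minus strand. Of the motifs searched on both strands over the whole promoter, the ETS core CCGGAAG was found in 42.1% of the 57 members, 9.93% of all genes and 19.7% of the tested genes, and the box A core CTCGCGAG in 12.3%, 1.04% and 2.17%. CCAAT was found in 33.3% of members, 41.1% of all genes and 43.3% of the tested genes. The antioxidant response element core TGACNNNGC was found in 19.3% of members, 14.0% of all genes and 16.9% of the tested genes. The Maf recognition motif TGCTGAC was found in 0 of 57 members, 5.28% of all genes and 4.54% of the tested genes, which says only that these letters are not in these windows. Against control, the double KO log2 fold change had a median of 0.032 over members with a tract at the start and of 0.00035 over those without.

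Values are given in CPM as normalized by the authors with a composition factor for each library, and the read depth behind them is unknown, so counting error is not given. Mafg fell from between 113 and 135 in control libraries to between 10.1 and 26.2 in the compound and double KO libraries, and Mafk was between 5.2 and 6.3 in control, between 4.3 and 5.3 in compound KO and at most 0.6 in double KO libraries. Compound KO replicate 1 stood apart from the other 8 libraries. Its summed lens fiber cell markers (10 of 12 genes analysed here) were 40554 against 80576 to 135006 elsewhere, and its periocular mesenchyme markers (10 of 10 genes) were 2314 against 179 to 364. Neural retina markers (9 of 9 genes) were 1038 in it against at most 254 elsewhere, and skeletal muscle markers (11 of 11 genes) were 385 against at most 91.8. Lens epithelium markers (7 of 7 genes) were 674 against 753 to 893. Erythroid markers (9 of 9 genes) ran from 1172 to 1641 in control, 1427 to 2841 in compound KO and 2341 to 3883 in double KO libraries. The main values of the comparisons that include compound KO replicate 1 are therefore given with and without it, and the part of these other cells in the results was not tested. In whole lenses, fewer cells of a type and less RNA per cell cannot be told apart.

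**Figure D1:**
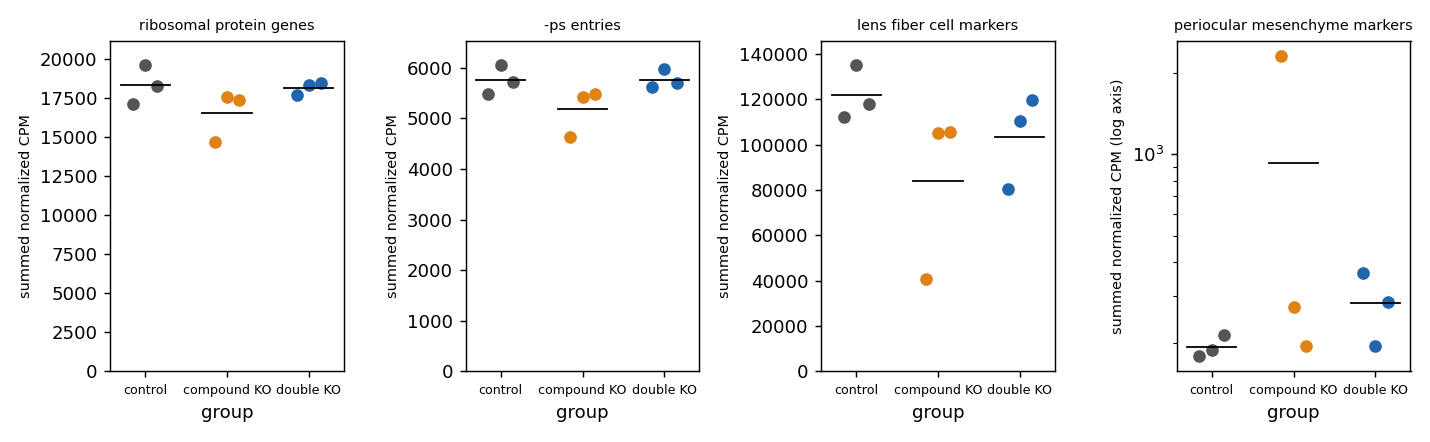
Summed normalized CPM in each library of the 78 ribosomal protein genes, the -ps entries, the lens fiber cell markers and, on a log axis, the periocular mesenchyme markers; points are libraries in order of replicate and lines are group means. Compound KO replicate 1 had the lowest ribosomal protein sum, 14717, and the highest mesenchyme sum, 2314.

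Together the 78 genes added up to 17134, 19619 and 18306 in the control libraries. They added up to 14717, 17563 and 17411 in the compound KO libraries and to 17713, 18352 and 18473 in the double KO libraries. The compound KO library with the strong mesenchyme signal was the lowest of the 9, and the double KO libraries lay inside the control range. As a share of the library's total the order was different, because the totals differ: the members made up 1.65% to 1.73% in control, 1.70% to 2.02% in compound KO and 1.71% to 1.81% in double KO libraries, and the highest share was in compound KO replicate 1. The ratio of summed 60S to summed 40S genes was 1.72 ± 0.07 (SD, n = 3) in control, 1.71 ± 0.08 (SD, n = 3) in compound KO, where the libraries other than replicate 1 had 1.61 and 1.77, and 1.78 ± 0.15 (SD, n = 3) in double KO lenses.

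Levels between genes were compared per kilobase (kb) of coding sequence, since the annotated transcripts of 9 members are longer than 3000 bases and the transcript behind each entry is not stated. In control lenses the median over the 78 genes was 406 normalized CPM per coding kb, and from the 10th to the 90th percentile the levels ran from 101 to 814. On this scale the highest was Rpl41, the shortest protein of the ribosome, at 1073 normalized CPM per coding kb. Its annotated coding sequence was the shortest among the members, at 138 bases, and its level rests on that length. Rpl41 was followed by the stalk base protein Rplp0 at 1066, Rpl4 at 979 and the stalk protein Rplp1 at 955. Next came Rpsa, which lies on the back of the small subunit, at 903. With these annotated lengths the neighbors lay close to each other. Rpl41 had values of 132, 164 and 149 in the 3 control libraries, a spread larger than its distance to Rplp0. The order depends on the length used: per kb of transcript the 5 highest were Rplp0, Rps15, Rpl4, Rpl7 and Rplp1, without Rpl41 and Rpsa. Per coding kb the lowest were Rpl29 at 6.32, Rpl21 at 15.8, the Rps4x-related gene Rps4l at 43.2, Rps12 at 49.1 and Rpl17 at 63.7 normalized CPM. Rpl29 had 2.7, 1.5 and 4.9 in the control libraries, and these control values lay below those of every other member in control per coding kb.

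**Figure D2:**
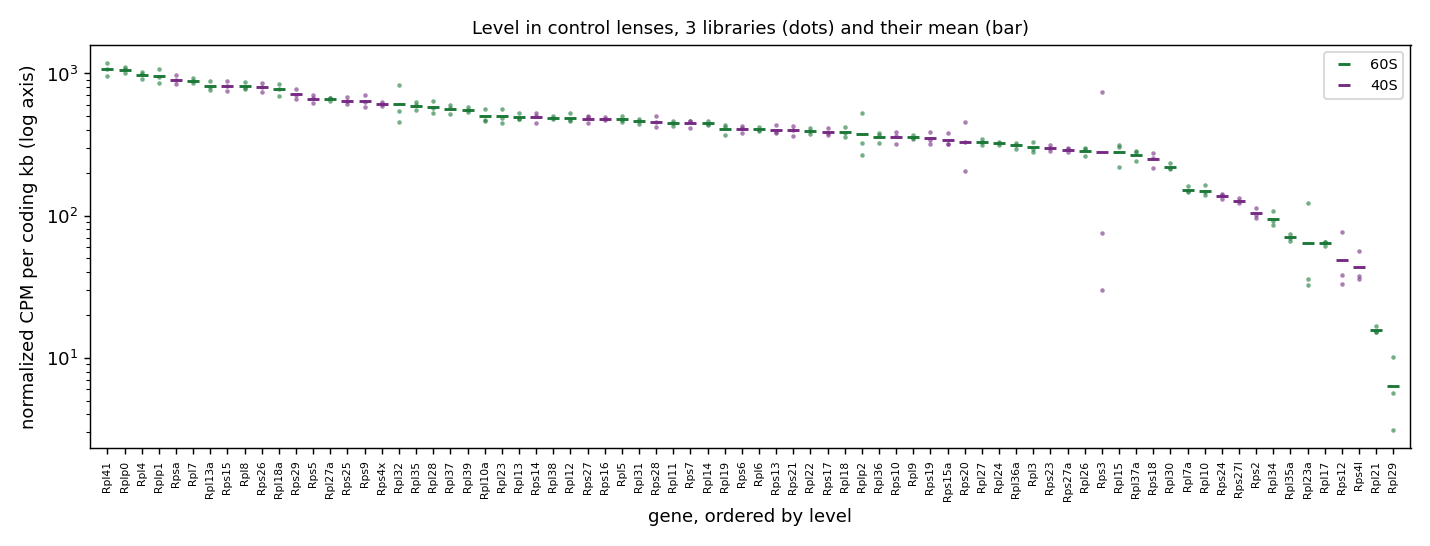
Level of 76 of the 78 ribosomal protein genes in control lenses, in normalized CPM per coding kb on a log axis, with the 3 control libraries as dots and their mean as a bar, green for 60S and purple for 40S. Over all 78 genes the levels run from 101 at the 10th percentile to 814 at the 90th, around a median of 406. A tail ends in Rpl21 at 15.8 and Rpl29 at 6.32, and Rps3 has widely separated dots.

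The table holds 152 entries with a ribosomal protein symbol that ends in -ps, of which 149 add a number and 3 do not. These are the symbols of processed pseudogenes, intronless copies of an mRNA in the genome. They belong to 51 of the 78 members. Together they added up to between 30.8% and 32.5% of the members' sum in every library, with 5480 to 6047 in control, 4620 to 5481 in compound KO and 5620 to 5971 in double KO libraries. In 20 of the 152 the control mean was higher than that of the parent gene. Rps2-ps13 had 411, 450 and 421 in the control libraries, and Rps2 itself had 89.5, 99.5 and 85.1. Rpl21 had 8.1, 7.3 and 7.3, and Rpl21-ps15 had 63.3, 70.0 and 64.7. The low-ranking members were often those with such copies: with the -ps entries added, the control level rose from 15.8 to 205 for Rpl21, from 49.1 to 448 for Rps12, from 63.7 to 529 for Rpl17 and from 104 to 718 normalized CPM per coding kb for Rps2. Rpl29 with its -ps entries reached 13.9 and stayed the lowest. The 21 members with at least 3 -ps entries had a median of 330 normalized CPM per coding kb alone and 566 with the -ps entries added, and the 27 members with none had 458. How reads that match several places were counted is not given in the sources used here, so the levels of these members are uncertain. Levels may be uncertain too in the paralog pairs Rps4x with Rps4l and Rps27 with Rps27l. Whether reads were shared within these pairs was not tested.

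Most members varied little. The median coefficient of variation over the 9 libraries was 9.10% for members and 14.3% for the 8151 entries with a symbol and a mean of at least 10. These entries were not matched to members for level, and the part of level in the difference was not tested. Without compound KO replicate 1 it was 6.97% and 9.63%. The highest and lowest library differed by less than 1.5-fold in 52 of 78 members (66.7%) and in 43.1% of those entries. Rps16, a small subunit protein, was the flattest, with 206, 217 and 209 in control, 217, 202 and 211 in compound KO and 215, 225.0 and 203 in double KO libraries. Many members also ran together. Pearson's r of log2(value + 1) with the median of the other members over the 9 libraries had a median of 0.74 and was at least 0.8 in 29 members; over the 8 libraries without compound KO replicate 1 the median was 0.60 and 11 members reached 0.8. The r was below 0 in 5 members over the 9 libraries and in 9 members over the 8. No r was computed for other genes beside it. The points of these correlations share libraries and their scaling.

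**Figure D3:**
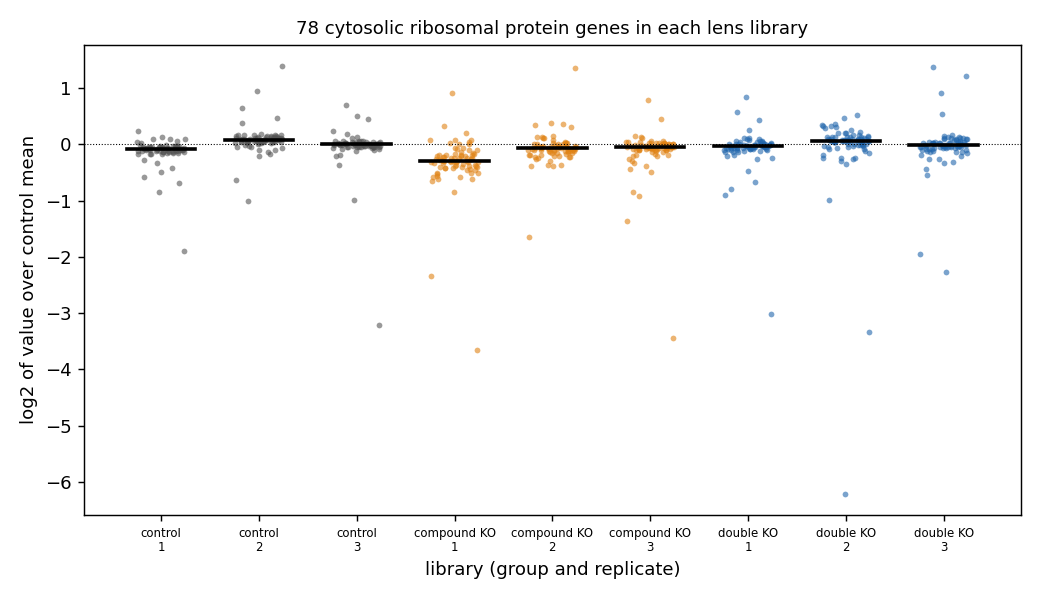
Value of each of the 78 ribosomal protein genes over its control mean, on the log2 scale, in the 9 libraries, with the median as a black line; gray is control, orange compound KO and blue double KO. The medians lie between -0.08 and 0.08 in control and between -0.03 and 0.06 in double KO libraries. They lie at -0.30, -0.07 and -0.05 in compound KO replicates 1, 2 and 3. A few genes sit far below the rest in single libraries.

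Double KO against control lenses asks how the loss of both Mafg and Mafk changed the lens. No ribosomal protein gene was called. Differences were tested across all genes by limma on log2(value + 1), with Benjamini-Hochberg adjustment. Genes past 1.5-fold with an adjusted p not above 0.05 were called. This held for 0 of 78 members, against 0.361% of the 14122 genes tested, and the smallest adjusted p of a member was 0.301. At an unadjusted p and the same fold change 0 of 78 members were called, against 2.83% of all genes. The median log2 fold change of members was 0.0027, beside 0.011 for all genes, with 38 members negative and 40 positive. For 65 members (83.3%) the 95% interval of the fold change lay wholly within 1.5-fold in either direction, which held for 62.0% of all genes. The set of all genes was not matched to members for level, here or in the comparisons below. Leaving out control replicate 3 added Rpl29 and Rpl32 at the unadjusted threshold, and leaving out control replicate 2 added Rpl23a.

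The member genes with values that did not overlap between double KO and control libraries were few. Rpl36a, a large subunit protein encoded on the X chromosome, had 94.3, 104 and 99.7 in control and 105, 109 and 107 in double KO libraries. It was the only member of 78 whose double KO libraries all lay above the control libraries, against 7.78% of all genes, and its log2 fold change was 0.11 (SE 0.05, adjusted p = 0.579 by limma). The libraries lay below control in 3 members, against 8.04% of all genes. Rpl18 had 202, 236 and 216 in control and 199, 184 and 190.4 in double KO libraries, a log2 fold change of -0.19 (SE 0.07, limma adjusted p = 0.471). Rpl30 had 81.0, 72.9 and 75 in control and 64.8, 68.9 and 68.6 in double KO libraries, a log2 fold change of -0.17 (SE 0.06, limma adjusted p = 0.409). Rps14, a small subunit gene whose loss is linked to a myelodysplastic syndrome, had 237, 202 and 229 in control and 186, 187 and 179 in double KO libraries, a log2 fold change of -0.27 (SE 0.07, limma adjusted p = 0.301). The shares of members that did not overlap were below those of all genes in both directions.

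Members with a known role of their own followed the rest. Of the stalk proteins, which recruit the elongation factors, Rplp0 had 957, 1060 and 1024 in control and 1054, 1048 and 1024 in double KO libraries, with a log2 fold change of 0.041 (SE 0.05). Rplp1 had a log2 fold change of 0.0074 (SE 0.09). Rplp2 had 91.6, 111 and 183 in control and 92.0, 101 and 102 in double KO libraries, so that its log2 fold change of -0.32 (SE 0.25) came with a single high control library. Rpl5 and Rpl11, which form a particle with 5S rRNA and bind Mdm2 when ribosome assembly fails, had log2 fold changes of -0.022 (SE 0.06) and -0.069 (SE 0.04). Rps6, the substrate of the S6 kinases, had 283, 321 and 308 in control and 281, 318 and 293 in double KO libraries.

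Around the peptide exit tunnel, the tRNA sites and the bridges between the subunits the picture was the same. Rpl39, which lines the tunnel, had a log2 fold change of 0.076 (SE 0.09). Rpl41, at a bridge between the subunits, had -0.094 (SE 0.09), and Rpl10, which joins late in assembly near the tRNA sites, had 0.16 (SE 0.08). Rps27a, made as a fusion with ubiquitin, had -0.023 (SE 0.08), and Rpsa had 0.0035 (SE 0.06). Rpl13a, also known for a role in silencing of inflammatory mRNAs, had 0.025 (SE 0.06). Of 16 members whose human counterparts are mutated in Diamond-Blackfan anemia, 0 were called, 9 were negative and 7 positive; apart from Rps24, their log2 fold changes ran from -0.19 to 0.14. Of the members known from mouse mutants, Rpl24 (Belly spot and tail), Rpl38 (Tail short) and Rpl22 (T cell development) had values of 0.011, 0.032 and 0.091. The p53-induced paralog Rps27l had 30.7, 32.0 and 33.6 in control and 28.1, 35.1 and 29.2 in double KO libraries, which overlapped.

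**Figure D4:**
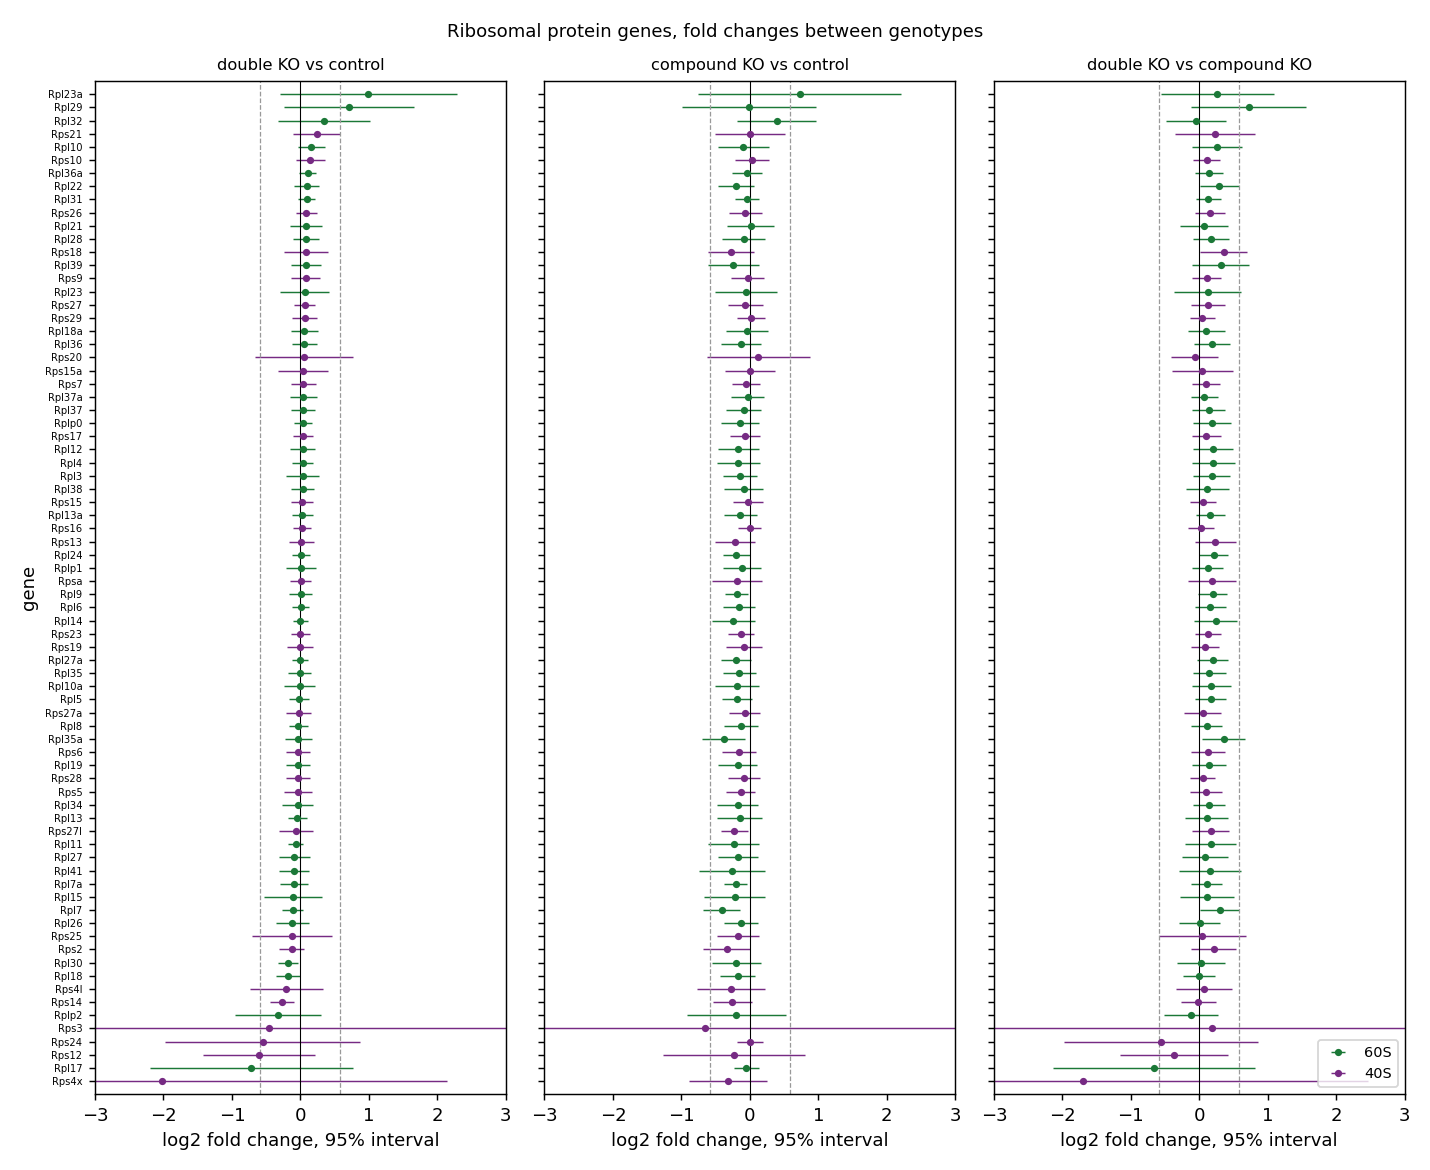
Log2 fold change of 76 of the 78 ribosomal protein genes with its 95% interval in the 3 comparisons, ordered by the double KO against control value, green for 60S and purple for 40S; dashed lines mark 1.5-fold, and the intervals of Rps3 and Rps4x run past the axis. Over all 78 genes the median was 0.0027 for double KO against control and -0.15 for compound KO against control.

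The 5 lowest log2 fold changes all belonged to members with at least a 3-fold range over the 9 libraries, and were -2.02 for Rps4x, -0.71 for Rpl17, -0.60 for Rps12, -0.55 for Rps24 and -0.46 for Rps3. The 5 highest, among members with a mean of at least 10 in a group, were 0.99 for Rpl23a, 0.34 for Rpl32, 0.24 for Rps21, 0.16 for Rpl10 and 0.14 for Rps10. Their adjusted p-values by limma ran from 0.577 to 0.959. Rpl32 had 184, 219 and 339 in control and 332, 355 and 235 in double KO libraries, and Rps21 had 91.1, 107 and 99.3 in control and 106, 105 and 143 in double KO libraries.

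Compound KO against control lenses asks what changed when Mafg was lost and a Mafk allele remained. Ribosomal protein genes were slightly lower as a group, mainly in compound KO replicate 1. Over members, the median log2 of value over control mean was -0.296 in that library. It was -0.071 and -0.054 in the other compound KO libraries, inside the control range of -0.084 to 0.082. The median log2 fold change of members was -0.15, beside 0.016 for all genes, and 70 of 78 members were negative. Compound KO replicate 1 carried a large part of this: the difference of the medians was -0.16 with it and -0.077 without it, where 61 of 78 members were negative. Under library size scaling, which removes the authors' composition factors, the all-gene median moved to 0.24 and the member median to 0.11, so that only the position of members below all genes held and 69 members were positive. No member of 78 was called at an adjusted p, and neither was any of all genes (0%), the smallest adjusted p of a member being 0.481. Without compound KO replicate 1 that smallest adjusted p was 0.241. At an unadjusted p and 1.5-fold, 1 of 78 members was called, against 5.34% of all genes. For 60 members (76.9%) the 95% interval lay within 1.5-fold, which held for 39.9% of all genes. Without compound KO replicate 1 these shares were 85.9% and 56.0%. Rpl23a passed the unadjusted threshold without control replicate 2, and Rpl32 without control replicate 3 or under library size scaling.

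All compound KO libraries lay below all control libraries in 16 members, against 11.7% of all genes, and above them in 0 members, against 12.2%. Without compound KO replicate 1, in 2 libraries against 3, it was 17 members below, against 15.5% of all genes, and 1 above, against 16.1%. Among the 16 were Rpl5, Rpl7, Rpl7a, Rpl9, Rpl11, Rpl14, Rpl24, Rpl27a, Rpl35a, Rps2, Rps4x, Rps13, Rps23 and Rps27l. Rpl7, an early-binding large subunit protein, had 715, 691 and 748 in control, 480.3, 546 and 596 in compound KO and 624, 701 and 668 in double KO libraries. Its log2 fold change was -0.41 (SE 0.11, limma adjusted p = 0.481) in compound KO and -0.11 (SE 0.06, limma adjusted p = 0.626) in double KO lenses, which were compared with the same control libraries. Without compound KO replicate 1 the compound KO value was -0.33 (SE 0.06, limma adjusted p = 0.241). Rpl35a had 22.0, 24.7 and 23.1 in control and 15.1, 19.4 and 18.5 in compound KO libraries, a log2 fold change of -0.38 (SE 0.12, limma adjusted p = 0.481), and of -0.28 (SE 0.08, limma adjusted p = 0.356) without that library.

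Double KO against compound KO lenses asks what the loss of the remaining Mafk allele added. The compound KO libraries are those of the previous comparison, so its values mirror it in part. The median log2 fold change of members was 0.13, beside -0.0053 for all genes, with 69 of 78 members positive. The difference of the medians was 0.14, and 0.062 without compound KO replicate 1. No member was called at an adjusted p, against 0.0139% of all genes, with a smallest adjusted p of 0.665, or 0.830 without compound KO replicate 1. At an unadjusted p and 1.5-fold, 1 of 78 was called, against 3.06% of all genes. Double KO libraries all lay above compound KO libraries in 26 members, against 8.17% of all genes, and below them in 0, against 7.39%. Without compound KO replicate 1 it was 29 members above, against 11.7% of all genes, and 1 below, against 10.6%. Among the 26, Rplp0 had 823, 967 and 969 in compound KO and 1054, 1048 and 1024 in double KO libraries, a log2 fold change of 0.18 (SE 0.11), or 0.11 (SE 0.04) without compound KO replicate 1. Rpl22 had 116, 135 and 146 in compound KO and 157, 176 and 153 in double KO libraries, a log2 fold change of 0.29 (SE 0.11), or 0.20 (SE 0.08) without it.

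In 8 of the 78 members (10.3%) the highest library was at least 3-fold above the lowest, against 18.4% of entries with a symbol and a mean of at least 10. Among them were Rps3, Rps4x, Rps12, Rps24, Rpl17, Rpl23a and Rpl29. Rps3, which lies at the mRNA entry channel (ENSMUSG00000030744, chr7:99098784-99132945 on the minus strand of GRCm39), had 54.9, 536 and 22.0 in control, 16.1, 522 and 18.8 in compound KO and 25.1, 20.2 and 474 in double KO libraries. It was thus high in 1 library of each genotype and 33.3-fold above its minimum. Rps4x, encoded on the X chromosome (ENSMUSG00000031320, chrX:101228542-101233014 on the minus strand of GRCm39), had 467, 483 and 498 in control, 268, 465 and 459 in compound KO and 475, 6.5 and 475 in double KO libraries. The library at 6.5 made the double KO mean 319 ± 270 (SD, n = 3), and without it the log2 fold change against control went from -2.02 to -0.023.

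Entries without a symbol mirrored these jumps in part. Among the 6193 entries without a symbol, the entry was sought whose sum with the member had the smallest SD over the 9 libraries relative to that of the member. For Rps3 that entry had 473, 0 and 545 in control, 497, 0 and 513 in compound KO and 542, 583 and 0 in double KO libraries. It was listed at 0 in exactly the 3 libraries in which Rps3 was high. The sum of Rps3 and this entry ran from 474 to 603, a 1.27-fold range, and its SD was 0.152 times that of Rps3, where the next best entry gave 0.86. The transcript to which such an entry belongs is not given in the sources used here.

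For Rps4x the opposite entry had at most 1.5 in 7 libraries, 186 in compound KO replicate 1 and 531 in double KO replicate 2, the libraries in which Rps4x was low. The sum ran over a 1.18-fold range, and its SD was 0.156 times that of Rps4x, where the next best entry gave 0.527. For Rpl23a and Rpl17 the ratios were 0.199 and 0.25. For Rps12, Rps24 and Rpl29 they were between 0.366 and 0.487, above the limit of 0.35 used for adding an entry. The search picked the best of 6193 entries over 9 points, so a low ratio is a description of the pair of entries and carries no test. In all, 14 members were at or under that limit, 9 of them with less than a 3-fold range over the libraries. Entries were added only to the other 5, an alternative chosen after seeing the data. The number of members past 1.5-fold then went from 3 to 0 for compound KO against control, from 5 to 2 for double KO against control and from 4 to 1 for double KO against compound KO.

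**Figure D5:**
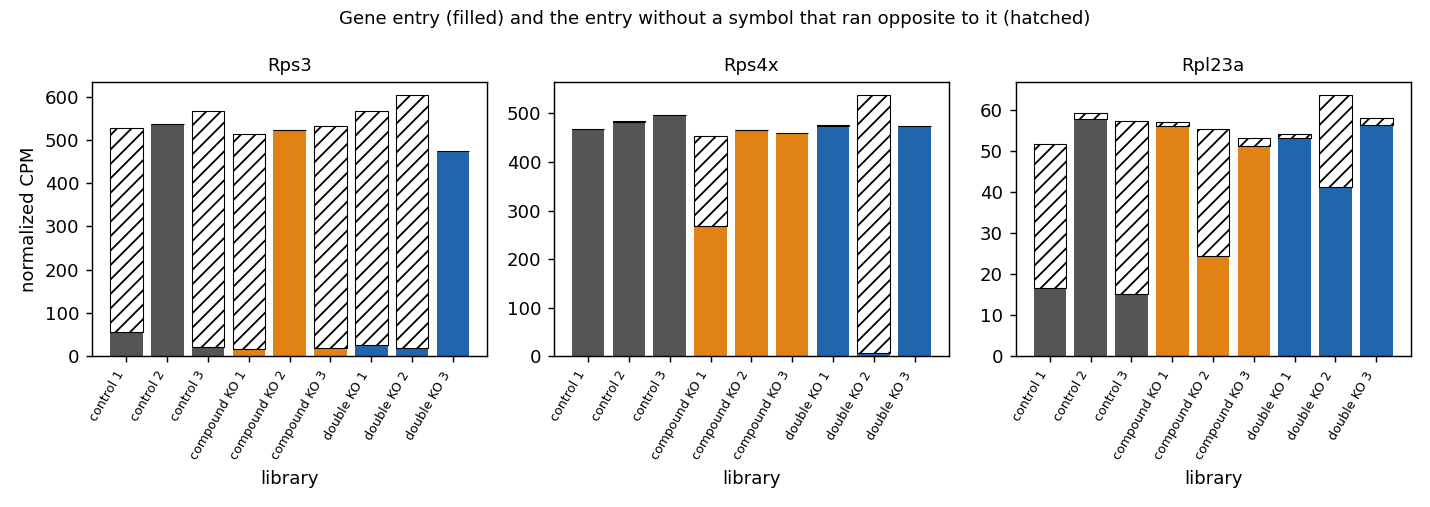
Normalized CPM of Rps3, Rps4x and Rpl23a in each library as filled bars, gray for control, orange for compound KO and blue for double KO, with the opposite symbol-less entry stacked on top as hatched bars. The summed height of Rps3 stays between 474 and 603 while its own part runs from 16.1 to 536, and that of Rpl23a stays within a 1.23-fold range.

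Other genes of the ribosome and its assembly were read from lists of symbols. Of 8 ribosomal proteins whose symbols the rule misses, 7 were tested and 0 were called at an adjusted p in any comparison; among them Rps3a1 had 184, 192 and 196 in control and 182, 211 and 184 in double KO libraries. Of 18 translation factors and other genes with TOP mRNAs, 0 were called, with median log2 fold changes of -0.021 in double KO and -0.14 in compound KO lenses against control. Of 55 ribosome biogenesis genes tested 0 were called, with medians of -0.0051 and -0.058. Of 80 mitochondrial ribosomal protein genes tested, whose products assemble a separate ribosome, 0 were called, with medians of 0.0090 and -0.087. Of 11 nucleolar stress and p53 target genes tested 0 were called, with medians of 0.024 and 0.18. Of 7 chaperones of ribosomal proteins 0 were called, with medians of -0.020 and -0.13. Of all genes tested, 0.361% were called between double KO and control and 0% between compound KO and control. Between double KO and compound KO it was 0.0139%. Counts of 0 in lists of this size therefore say little about them. Both knockouts were compared with the same control libraries. The compound KO medians include replicate 1. Without it they were -0.076 for the genes with TOP mRNAs, -0.027 for ribosome biogenesis and -0.043 for mitochondrial ribosomal proteins. They were 0.15 for nucleolar stress and -0.081 for chaperones. Then 0 of these genes were called, against 13 of all 14042 genes tested.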

How the data were processed

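RNA-seq of 9 lens libraries, 3 per genotype as labelled, was analysed. The authors trimmed reads, used HISAT2 for alignment to mm39 and StringTie for counts per transcript, and removed entries with low CPM in edgeR; annotation and the handling of reads with several matches are not given in the sources used here. The deposited values are a signal, normalized CPM with a composition factor for each library, in steps of 0.1. Library totals ran from 728036 to 1131180 and are not depths.

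Each pair of genotypes was compared by limma 3.58.1 (R 4.3.3) with an intensity trend on log2(value + 1), for entries with a symbol that reached 1 in 2 or more of the 6 libraries, two-sided, with Benjamini-Hochberg adjustment. Fold changes on this scale understate those of low genes. The fits were tested on simulated data. An exact permutation test of 3 against 3 libraries cannot go below 0.1. P-values measure the spread between these samples, pools of 8 lenses labelled as biological replicates. Members and gene lists were chosen with earlier results of these data known. Candidates for naming were members called in a comparison and the 5 largest changes in each direction between double KO and control. Members with a textbook role were also candidates. So were the 5 highest (Rplp0, Rps15, Rpl4, Rpl7, Rplp1) and 5 lowest (Rpl29, Rpl21, Rpl34, Rpl17, Rps4l) levels per kb of transcript. Not all candidates are given with values, and other members were chosen after their values were seen. Lengths come from canonical transcripts of GENCODE M39. Coding lengths were used in the text. Some members are counted and not reported one by one. Alternatives were upper quartile and library size scaling, other filters, a joint fit of 9 libraries, a pseudocount of 0.1, a replicate block, no fold threshold, entries added together and each replicate left out. Python 3.11.15, numpy 2.4.6, pandas 2.3.3 and matplotlib 3.10.9 were used.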

Additional observations from a re-analysis of the deposited data

How the results depend on the processing

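The difference between the member median and the all-gene median kept its direction under every alternative for compound KO against control (-0.20 to -0.077) and double KO against compound KO (0.062 to 0.17), and for double KO against control it lay between -0.044 and 0.048, on both sides of 0. Between libraries of a genotype, the member median minus the all-gene median had a pooled SD of 0.14, 0.13 and 0.087 in these comparisons, in that order. Genes called at an adjusted p between double KO and control, 51 in all, were 19 in a joint fit of 9 libraries, 10 with a replicate block and 22 to 47 with a library left out (22 without control replicate 3, 33 without control replicate 1 and 27 without double KO replicate 1). Between compound KO and control, 0 became 2 in the joint fit and 0 to 13 with a library left out (13 without compound KO replicate 1). Between double KO and compound KO, 2 became 0 when every library had to reach 1, 5 in the joint fit, 0 with the block, 1 with a pseudocount of 0.1 and 1 to 6 with a library left out (6 without compound KO replicate 1, 4 without compound KO replicate 2 or double KO replicate 1, and 1 without double KO replicate 2 or 3). Members called at an unadjusted p were 1 with the block (Rpl29), 3 with no fold threshold (3.85%, against 9.97% of all genes) and 0 to 2 with a library left out for double KO against control. For compound KO against control they were 2 with library size scaling, 7 with no fold threshold (8.97%, against 9.30%), 1 to 2 with a library left out and 0 with the opposite entry added. For double KO against compound KO they were 5 with no fold threshold (6.41%, against 4.87%) and 0 with the opposite entry added. Adding opposite entries or -ps entries was chosen after seeing the data. The cause of these shifts was not tested. Libraries with the same number correlated by -0.11 to 0.22 after removal of group means. Pairs with different numbers were not measured beside them, so whether a number marks a shared batch or litter was not tested.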
